A study of Oryctolagus cuniculus with 6 samples.

Results

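The genes described here encode the mitochondrial respiratory chain and ATP synthase. They were taken from the rabbit array by its own probe descriptions: every probe that is not a control and whose description names NADH dehydrogenase, succinate dehydrogenase, ubiquinol-cytochrome c reductase, cytochrome c oxidase or ATP synthase was kept, and probes were joined to genes by gene number or symbol. This gave 55 members from 170 probes, among 23365 features on the array. All 55 passed the filter on dim signal (well above background on 3 or more of 6 arrays) and entered the fit, which covered 20218 features. By known function 43 members were subunits and 12 were assembly factors, and they fell to complex I (23 members), complex II (5), complex III (5), complex IV (12) and complex V (10).

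The study used 24 male New Zealand White rabbits, 4 months old, with 4 round holes of 5 mm cut into the parietal bone of each animal. Holes on the right side received 0.2 g of human particulated dentin (HPD), a graft made from ground human teeth, and the others were left empty as controls. New tissue was collected on day 3, 5 or 7, and 1 single-dye array was run for each treatment and day, so n = 1 per group and graft and control share their animals. The labels do not say whether several animals were pooled for an array, and nothing marks a genetic change in any group.

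The respiratory chain passes electrons from NADH (complex I) and succinate (complex II) through complex III and cytochrome c to oxygen at complex IV, and the proton gradient built on the way drives ATP synthase, complex V. Most subunits are encoded in the nucleus and imported, and separate assembly factors insert haem, copper and iron-sulphur groups or join subunits. In healing bone the balance between this pathway and glycolysis is a known feature of differentiating osteoblasts and of immune cells.

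Levels below are log2 signal relative to the 75th percentile of the array, so a level of 0 is that percentile. Each probe has its own response, so levels of different genes do not rank their amounts of RNA. Summed levels of marker genes are weighted by probe signal, and a gene named as the largest part of a sum is so by signal only. Differences are in log2 units, with control subtracted from HPD and an earlier day from a later one. Between 78.1% and 86.4% of spots were well above background and 0 were saturated. Both arrays of day 3 lie on one slide and the arrays of days 5 and 7 on another, so day 3 against a later day cannot be told apart from slide, whereas graft against control and day 7 against day 5 are each compared within a slide.

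Markers of bone matrix were present on all arrays: COL1A2, a collagen I chain, stood between 8.54 and 10.15, and 9 of the 10 listed osteoblast and bone matrix genes were measured. Their median HPD difference was -0.10 on day 3, -1.26 on day 5 and 0.75 on day 7. The lowest day 5 differences were -2.09 for IBSP, -2.27 for DMP1 and -2.18 for OMD. RUNX2 gave -0.21 on day 5, while SPP1 (0.22) and SP7 (0.01) were higher and the rest lower. SPP1 was also higher with HPD on day 3, by 1.75. Their median difference between day 5 and day 3 was 1.75 in control and 0.69 with HPD. The summed linear level of the 5 measured neutrophil markers was 756 in control and 222 with HPD on day 3, 83.9 and 230 on day 5, and 7.95 and 18.2 on day 7. The sum of day 5 was mostly S100A9 (6.35 in control and 7.83 with HPD). CAMP, LCN2 and MPO differed by -0.07, 0.02 and 0.67 on that day. CXCR2 was higher with HPD on all 3 days, by 0.31, 0.28 and 0.31. The summed level of the 7 measured macrophage markers was higher with HPD on each day (31.5 and 45.6, 17.2 and 35.4, 17.6 and 23.4 for control and HPD in turn). CD14 was the largest part of each sum. CHIT1, CSF1R and MARCO were lower with HPD on day 3, by -0.15, -0.05 and -0.0002. CSF1R and MRC1 were lower on day 7, by -0.07 and -0.19, and the other measured markers were higher on those days. The 6 measured osteoclast markers summed to 82 in control and 168 with HPD on day 3, and to between 175 and 241 later, with median HPD differences of 1.16, -0.28 and -0.02 on the 3 days. All 6 measured red cell markers were lower with HPD on day 3, with a median of -1.93, and the medians of days 5 and 7 were 0.56 and 0.06; their summed level, mostly HBA, was between 1038 and 1663. These markers moved with day and treatment, and their part in the results below was not tested. In tissue of mixed cells, fewer cells of a type and less RNA per cell cannot be told apart.

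The probes of the members with the lowest and highest HPD difference, and a pair of near-identical probes, show what the array measured. NDUFA4 was read by a probe that the file places at chr10:28058648-28062758 (plus strand, oryCun2), and COX10 by one at chr19:5629564-5694171 (minus strand). Both intervals are longer than the probe, which has 60 bases. Exon, intron and UTR annotation of that build was not used here. The sequences of COX6A2 and a second gene number described as COX6A2-like share 51 identical bases over a 54-base overlap, shown in capitals, and neither has a position in the file, so their signals may not be separate measurements.
NDUFA4: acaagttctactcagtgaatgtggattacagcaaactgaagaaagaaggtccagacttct
COX10: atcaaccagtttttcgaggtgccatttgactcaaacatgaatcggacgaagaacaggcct
COX6A2: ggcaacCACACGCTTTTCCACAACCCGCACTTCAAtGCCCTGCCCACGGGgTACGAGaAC
COX6A2-like: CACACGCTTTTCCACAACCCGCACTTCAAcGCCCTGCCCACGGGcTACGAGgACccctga

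The first comparison asks how tissue around the graft differed from tissue in an empty defect. Most members read slightly lower with HPD. The difference was below 0 for 44 of 55 members and above 0 for 11, with a median of -0.13 log2 units against 0.09 over all features. On the single days the member median was -0.10 on day 3, -0.13 on day 5 and -0.12 on day 7, beside 0.14, 0.09 and 0.06 over all features. Under quantile normalization the day 3 median of the members turned to 0.03, and the difference over all days shrank to -0.03. With limma and Benjamini-Hochberg adjustment, 0 of 55 members passed an adjusted p of 0.05, and 0% of all features did (smallest adjusted p of a member 0.553). At an unadjusted p under 0.05 there were 2 members, NDUFA4 and COX10, against 8.6% of all features.

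The members were lower with HPD on all 3 days in 30 of 55 cases, while 11% of all features were. They were higher on all 3 days in 6 cases, while 26.4% of all features were; leaving out gene numbers that share a locus or probe, the counts were 29 lower and 4 higher. With quantile normalization the count of members below control on all 3 days fell to 14. HPD and control were at least 1.5-fold apart for 0 members on day 3 (18.9% of features well above background on both arrays), for 1 member, TACO1, on day 5 (20.7%), and for 0 on day 7 (10.1%). No member was 2-fold apart on any day.

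The size of the difference moved with how bright a probe was, for all features and not for members alone. Over features with a mean level of 4 to 6 the median HPD difference was -0.08 for all 453 features and -0.15 for the 16 members, and 29.1% and 62.5% of them were lower on all 3 days. Above a level of 6 the medians were -0.12 for 293 features and -0.14 for 13 members, with 46.1% and 84.6% lower on all 3 days. In the dimmest band that held members, from -4 to -2, the medians were 0.17 for all 6600 features and 0.11 for 4 members. The cytosolic ribosomal proteins, which are also bright, had a median HPD difference of -0.18, and 31 of 40 were lower on all 3 days. The part of brightness in the result for the members was not tested.

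**Figure D1:**
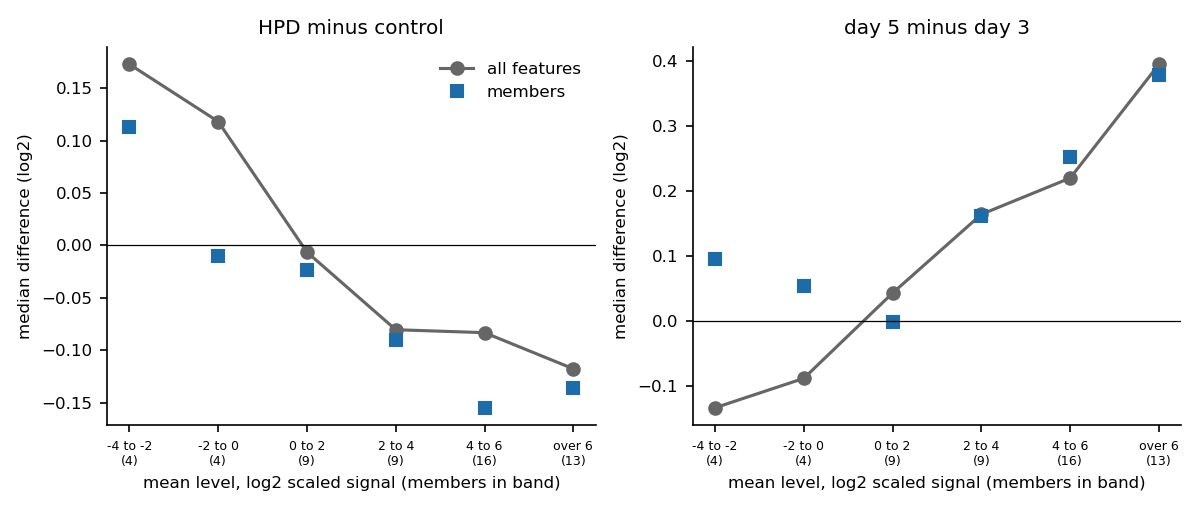
Median difference (log2 units) of all features (grey line) and of the members (blue squares) by band of mean level, with the number of members in each band in brackets; the left panel is HPD minus control and the right panel day 5 minus day 3. The HPD medians of all features run from 0.17 in the band -4 to -2 to -0.12 above 6, and the member medians lie at or below them.

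**Figure D2:**
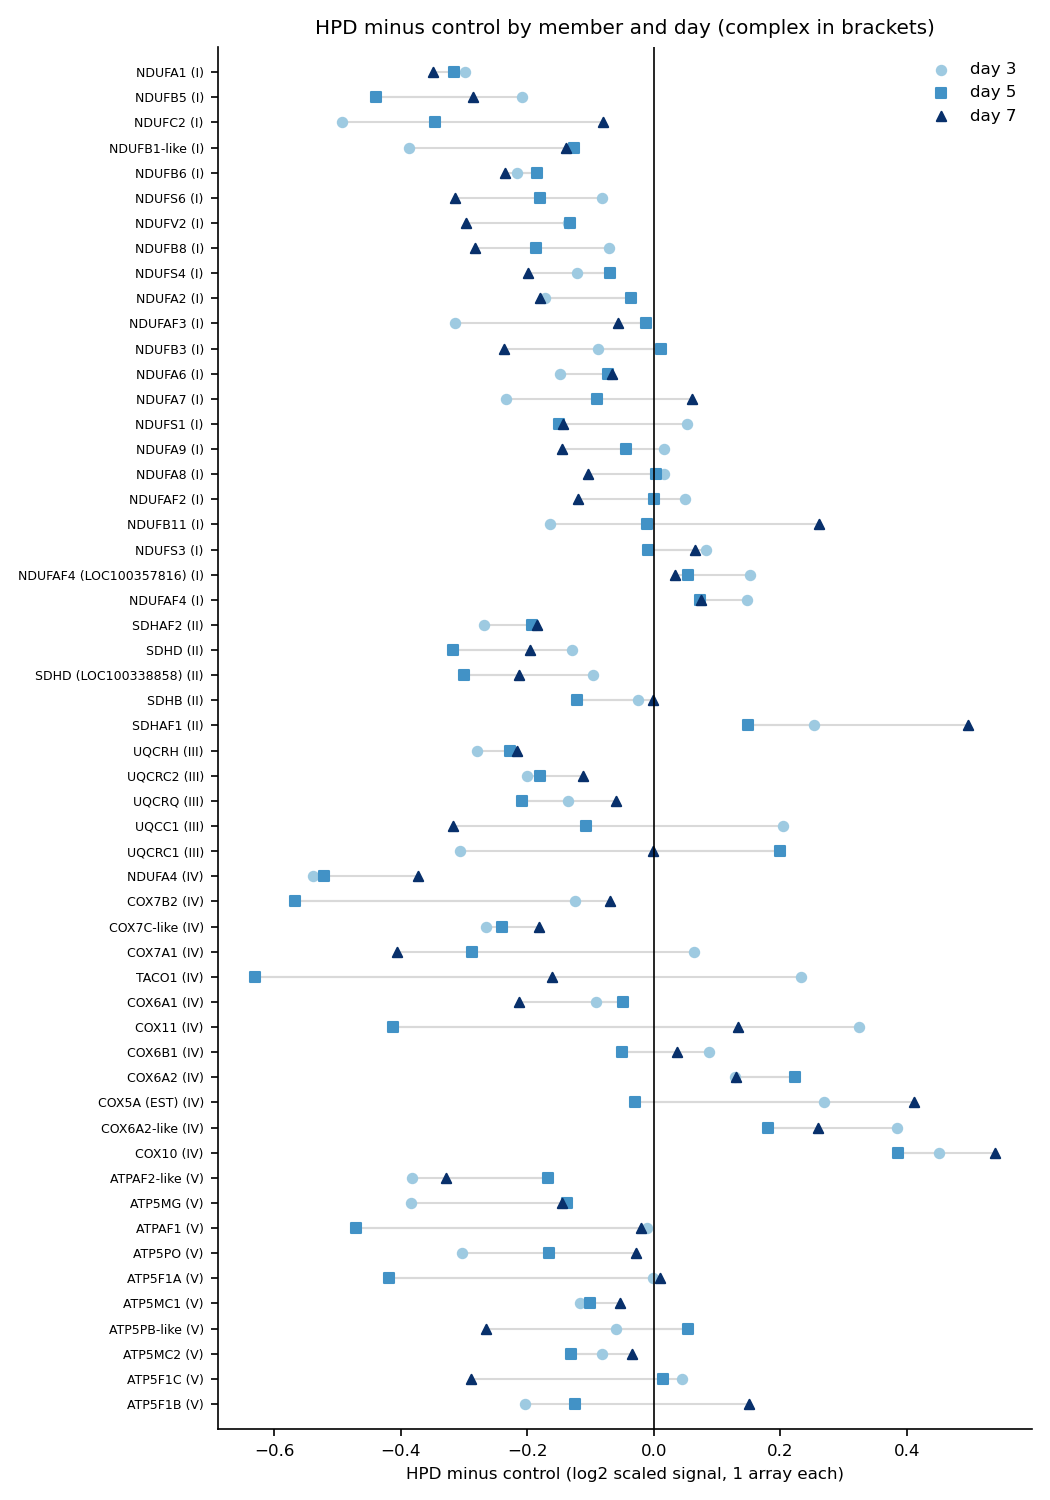
HPD minus control (log2 units, 1 array each) for 54 of the 55 members on day 3 (circles), day 5 (squares) and day 7 (triangles), grouped by complex and ordered by the fitted HPD difference. In 29 of the members drawn all 3 points lie left of 0, and in 6 all lie right of it; with quantile normalization 14 of all 55 members were below control on all 3 days.

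Complex I, which oxidises NADH, had a median HPD difference of -0.13 over 23 members, and 13 of them, 12 of the 19 subunits among them, were lower on all 3 days. NDUFA1, a small membrane subunit, read 6.09 in control and 5.79 with HPD on day 3, 6.75 and 6.43 on day 5, and 6.67 and 6.32 on day 7. HPD was lower on each day by a near-equal amount, and the fitted difference was -0.32 ± 0.13 (SE, adjusted p = 0.553 by limma). Of its 5 probes 3 map to chromosome X and 2 to chromosome 8, and the one used lies at chr8:82022009-82022068 (minus strand). Copies of the gene therefore cannot be told apart.

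NDUFB5, a membrane-arm subunit, read 4.35 and 4.14 on day 3, 5.16 and 4.72 on day 5, and 4.92 and 4.63 on day 7, each time with control first. All 3 pairs had HPD lower, with a fitted difference of -0.31 ± 0.14 (SE, adjusted p = 0.553 by limma). NDUFC2, another membrane-arm subunit, stood at 3.82 and 3.33 on day 3, 4.04 and 3.69 on day 5, and 3.58 and 3.50 on day 7. It was 0.49 below control on day 3 and 0.08 below on day 7, each from 1 array pair.

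NDUFS1, the largest core subunit of complex I, had an HPD difference of -0.08 ± 0.14 (SE), and NDUFS3 of 0.05 ± 0.13 (SE), which turned to -0.09 when arrays were scaled to their median. The 2 gene numbers for NDUFAF4, an assembly factor, were both above control on all 3 days, by 0.15, 0.07 and 0.07 and by 0.15, 0.05 and 0.03. They lie at one locus on chromosome 12 and cannot be counted as separate genes.

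Complex II, succinate dehydrogenase, links the citric acid cycle to the chain. Its median HPD difference was -0.20 over 5 members, with 4 lower and 1 higher on all 3 days. Its membrane anchor SDHD read 4.94 and 4.81 on day 3, 5.10 and 4.79 on day 5, and 5.02 and 4.82 on day 7, control first. HPD was lower in each pair (fitted difference -0.21 ± 0.13, SE, adjusted p = 0.585 by limma). A second gene number for SDHD at adjacent coordinates gave -0.20, and the 2 may not be separate genes. The iron-sulphur subunit SDHB differed by -0.05 ± 0.13 (SE). SDHAF1, an assembly factor that helps load iron-sulphur groups, went the other way: it read -3.68 and -3.43 on day 3, -4.07 and -3.92 on day 5, and -4.25 and -3.75 on day 7. Its fitted difference of 0.30 ± 0.15 (SE, adjusted p = 0.557 by limma) ran between 0.01 and 0.38 over the alternatives tried. SDHAF1 was read from 1 probe in the dim band from -4 to -2, where the median of all features was also above 0, at 0.17.

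Complex III passes electrons from ubiquinol to cytochrome c. Its median HPD difference was -0.13 over 5 members, with 3 lower and 0 higher on all 3 days. The core subunit UQCRC2 was below control by 0.20, 0.18 and 0.11 on the 3 days. The other core subunit, UQCRC1, gave -0.31 on day 3 and 0.20 on day 5, with no difference on day 7 beyond the second decimal.

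Complex IV, cytochrome c oxidase, was the most divided. Its 12 members had a median of -0.05, with 6 below 0 and 6 above. The median turned to 0.02 when arrays were centred on features of level 4 or more, an alternative chosen after seeing the data. The median level of its members was 0.67, against 4.14, 2.47, 2.90 and 5.77 for complexes I, II, III and V. The part of brightness in the values of this complex was not tested. NDUFA4, which is known to belong to this complex, gave the lowest HPD difference of all members. It read 6.63 in control and 6.10 with HPD on day 3, 7.24 and 6.72 on day 5, and 6.88 and 6.50 on day 7. HPD was below control on each day, at 0.689, 0.697 and 0.772 of its linear signal, and the fitted difference was -0.48 ± 0.13 (SE, adjusted p = 0.553 by limma). Its 5 probes gave -0.48 to -0.42, and the alternatives tried -0.61 to -0.38.

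COX10, which converts haem B to haem O on the way to the haem A of complex IV, gave the highest. It stood at -3.14 in control and -2.69 with HPD on day 3, -2.94 and -2.55 on day 5, and -2.85 and -2.31 on day 7. Every HPD array was above every control array, and the fitted difference was 0.46 ± 0.13 (SE, adjusted p = 0.553 by limma) from 1 probe, with 0.18 to 0.53 over the alternatives tried. Its level lies in a band where the median of all features was also above 0.

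Isoforms of complex IV that are typical of heart and skeletal muscle were split. COX6A2 was above control by 0.13, 0.22 and 0.13 on the 3 days, and COX6A2-like by 0.38, 0.18 and 0.26. COX7A1 was above control by 0.06 on day 3 and below it by 0.29 and 0.41 on days 5 and 7. The liver-type COX6A1 was lower by 0.09, 0.05 and 0.21. COX5A, another complex IV subunit, here read from an expressed sequence tag, gave 0.27, -0.03 and 0.41. Its 5 probes had HPD differences from 0.22 to 0.48. The summed linear level of 10 measured skeletal muscle markers was 7.89 and 6.76 on day 3, control first. It was 5.65 and 7.05 on day 5, and 9.84 and 6.90 on day 7. ACTA1 was the largest part of each sum and differed by -0.25, 0.26 and -0.64, while CKM differed by 0.34, -0.81 and 0.54. Of the 10 markers 5, 3 and 8 were below control on the 3 days. The part of muscle in these values was not tested.

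TACO1, a translational activator of the mitochondrial COX1 message, read -3.28 and -3.05 on day 3, -2.18 and -2.81 on day 5, and -3.52 and -3.68 on day 7. The control array of day 5 stood above the other arrays. Its 5 probes disagreed, with HPD differences from -0.19 to 0.63 and 1 of the 5 below 0, and with the mean of the probes the sign turned.

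Complex V, ATP synthase, had a median HPD difference of -0.11 over 10 members, 6 of them lower and 0 higher on all 3 days. The catalytic-head subunit ATP5F1A read 6.12 and 6.12 on day 3, 6.74 and 6.32 on day 5, and 6.45 and 6.46 on day 7, with the widest gap on day 5. The catalytic subunit ATP5F1B was below control by 0.20 and 0.12 on days 3 and 5 and above it by 0.15 on day 7. The central stalk subunit ATP5F1C gave 0.05, 0.01 and -0.29. ATPAF2-like, described as an assembly factor of the head, read 2.62 and 2.23, then 2.21 and 2.04, then 2.84 and 2.51, with HPD lower each time (fitted difference -0.29 ± 0.13, SE, adjusted p = 0.557 by limma).

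**Figure D3:**
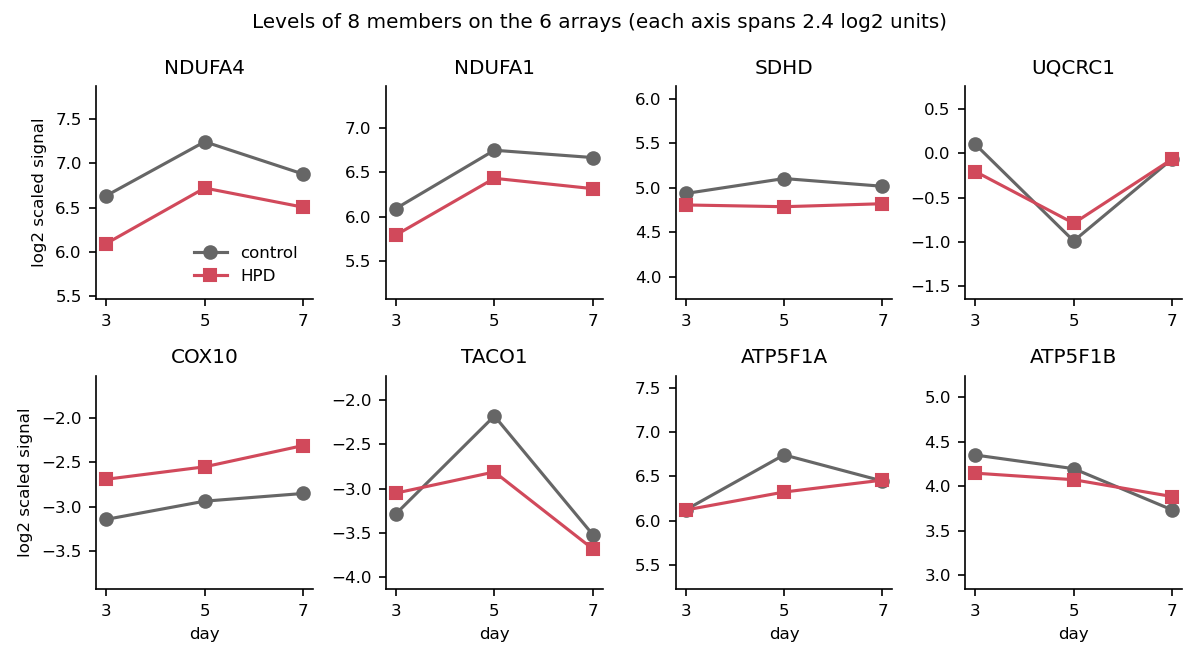
Level (log2 scaled signal) of 8 members against day in control (grey circles) and HPD (red squares) tissue, 1 array per point; each axis spans 2.4 log2 units. NDUFA4 and NDUFA1 lie lower with HPD on each day and COX10 higher, and UQCRC1 is lowest on day 5 in both treatments.

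NDUFA4L2, a paralogue of NDUFA4 known to be induced in low oxygen, was outside the description rule but was among the isoforms chosen for naming. It read -4.62 and -3.85 on day 3, -5.47 and -4.17 on day 5, and -4.28 and -4.20 on day 7, control first. HPD was higher in each pair, by 0.77, 1.30 and 0.08, with a fitted difference of 0.72 ± 0.27 (SE, adjusted p = 0.553 by limma), in a dim probe that was well above background on 5 arrays. NDUFA4 itself was lower with HPD on the same arrays, and the difference between both genes was not tested. COX8A, a small complex IV subunit also outside the rule, gave 0.13 ± 0.14 (SE).

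Respiratory genes found by RefSeq symbol but not by their description, a list drawn up after values were seen, had a median HPD difference of -0.17 over 28 genes, 18 lower and 3 higher on all 3 days. Under other scalings that median ran from -0.30 (median of each array) to -0.07 (quantile normalization). COX6C, a complex IV subunit, was below control by 0.36, 0.34 and 0.33 on the 3 days.

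The second comparison follows healing time. Between day 3 and day 5 the member median was 0.23 higher, against -0.06 over all features, and it was 0.25 in control and 0.23 with HPD. In both treatments 40 of 55 members were higher on day 5 than on day 3, while 25.7% of all features were. With limma 0 members passed an adjusted p of 0.05 and 0.00495% of features did (smallest member value 0.218); 11 members had an unadjusted p under 0.05, against 16.3% of features. The 10 of these that were higher were NDUFA1, NDUFA4, NDUFA6, NDUFB5, NDUFB6, NDUFS4, NDUFS6, COX7B2, COX7C-like and ATP5PO, and UQCRC1 was lower. Centring on features of level 4 or more turned the member median to -0.01, and bright features in general were higher on day 5, with medians of 0.39 over all features and 0.38 over members above a level of 6.

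Between day 5 and day 7 the member median was -0.16, against 0.08 over all features. In both treatments 40 members were lower on day 7 than on day 5, while 24.1% of all features were, and 0 members and 0% of features passed the limma test (smallest member adjusted p 0.573). At an unadjusted p under 0.05 there were 4 members (NDUFS3, TACO1, UQCRC1 and ATPAF2-like), against 8.13% of features. This step lies within 1 slide. With quantile normalization or centring on features of level 4 or more, the median shrank and fewer members were lower in both treatments (values in the closing section).

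Over the whole span from day 3 to day 7 the member median was 0.06, against -0.01 over all features. In both treatments 28 members were higher on day 7, while 34.6% of all features were. Again 0 members passed an adjusted p of 0.05 and 0.00495% of features did (smallest member value 0.180), and 5 members had an unadjusted p under 0.05, against 20.8% of features. Centring on features of level 4 or more turned this median to -0.04.

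By complex, the median changes were as follows. Complex I was 0.31 and 0.34 higher on day 5 than on day 3 in control and HPD, and then 0.13 and 0.21 lower on day 7. Complex V followed with 0.26 and 0.23, then -0.22 and -0.19. Complex II was 0.08 and -0.02 in the first step and -0.27 and -0.18 in the second. Complex IV was 0.21 and 0.10 in the first step, and -0.11 in control but 0.09 with HPD in the second. Whether complexes differ from each other was not tested.

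**Figure D4:**
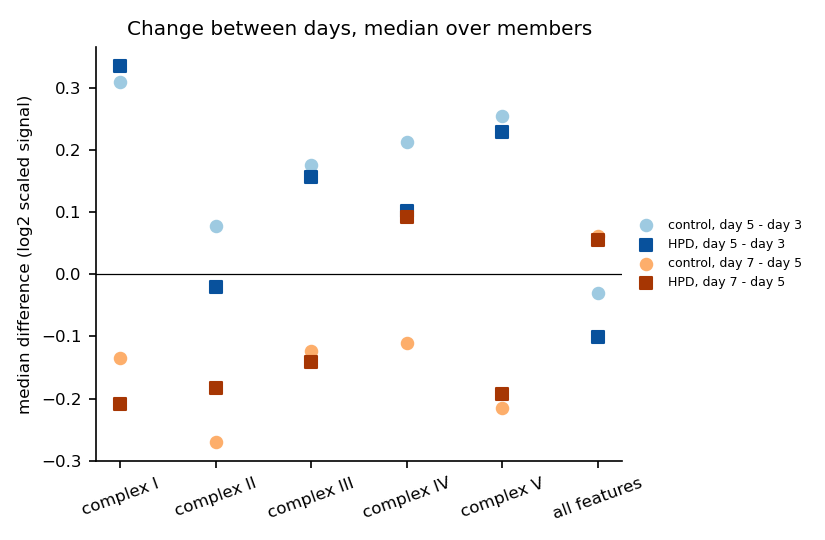
Median change between days (log2 scaled signal) over the members of each complex and over all features, for day 5 minus day 3 (blue) and day 7 minus day 5 (orange), in control (circles) and HPD (squares). Complexes I, III and V lie above 0 in the first step and below 0 in the second; with centring on features of level 4 or more the member median of the first step turns to -0.01.

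Not every member had this shape. There were 6 members lower on day 5 than on day 3 in both treatments, and 6 higher on day 7 than on day 5. ATPAF2-like, from 1 probe, had steps of -0.30 ± 0.17 and 0.55 ± 0.17 (SE). UQCRC1, also from 1 probe, ran against the shape too. It read 0.10 in control and -0.21 with HPD on day 3, -0.99 and -0.79 on day 5, and -0.06 and -0.07 on day 7. Both day 5 arrays were the lowest, and the steps were -0.84 ± 0.20 and 0.82 ± 0.20 (SE, adjusted p = 0.226 and 0.573 by limma). COX7B2, an isoform of a small complex IV subunit, read 1.09 and 0.97, then 1.88 and 1.31, then 1.71 and 1.64, and had the largest day 7 minus day 3 difference of all members, 0.65 ± 0.20 (SE, adjusted p = 0.197 by limma), and 1.14 with the mean of its probes. TACO1 gave -1.1 ± 0.26 (SE, adjusted p = 0.573 by limma) for day 7 minus day 5, but -0.37 with normexp background and -0.36 with the mean of its probes. ATP5F1B had the lowest day 7 minus day 3 difference with SDHAF1, each -0.44 ± 0.18 (SE), but SDHAF1 turned to 0.14 with normexp background.

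Genes that feed or maintain the chain were taken from 7 lists of known pathway genes. Over these lists 0 genes passed the limma test for HPD, and 0% of all features did. At an unadjusted p under 0.05, 2 list genes were higher and 2 lower, while 8.6% of all features reached it in either direction. The mitochondrial ribosome translates the proteins encoded in mitochondria. Its fitted HPD difference was like that of the members, with 38 of 43 genes below 0 and a median of -0.12. That median was between -0.25 and -0.05 under other scalings, and MRPL27 gave -0.35 ± 0.13 (SE). By day the list's medians were -0.14, -0.03 and -0.18, and on day 5 only 25 of 43 genes were below control, against 44 of 55 members. In mitochondrial biogenesis, 5 of 8 were below 0, and 3 of 8 with quantile normalization. TFAM, the packaging factor of mitochondrial DNA, had the lowest HPD difference of that list and was lower by 0.25, 0.40 and 0.47 on the 3 days. TWNK had the highest and was above control by 0.09, 0.66 and 0.36. In the TCA cycle 7 of 12 were below 0, with IDH3A at 0.43 ± 0.13 (SE) the highest.

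Glycolysis stood on the other side. Its median HPD difference was 0.31 over 17 genes, 15 of them above 0 and 8 above control on all 3 days, and the medians on days 3, 5 and 7 were 0.18, 0.83 and 0.02. On day 7, 8 of the 17 genes were below control. Over 4 other scalings and backgrounds the list's median stayed between 0.17 and 0.44, with 2 or 3 genes below 0. SLC2A3, a glucose transporter, read -2.93 and -2.80 on day 3, -4.16 and -2.60 on day 5, and -4.37 and -3.92 on day 7, control first. HPD was higher in each pair and most on day 5, by 1.56, with a fitted difference of 0.72 ± 0.32 (SE, adjusted p = 0.553 by limma). The carriers of electrons and energy had 8 of 12 genes below 0, with SLC25A4, an ADP/ATP carrier, at -0.22 ± 0.14 (SE) and UCP1 the highest at 0.31 ± 0.19 (SE). Pyruvate entry had 2 of 9 below 0 (7 of 9 when arrays were scaled to their median). Its lowest was the carrier MPC1 at -0.31 ± 0.14 (SE) and its highest PDP1 at 0.24 ± 0.16 (SE). Reactive oxygen defence had 6 of 7 below 0, from the glutaredoxin GLRX2 at -0.23 ± 0.14 (SE) to GPX1 at 0.16 ± 0.17 (SE). On day 5 only 2 of these 7 were below control, with CAT at 0.73 and GPX1 at 0.48.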

How the data were processed

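The deposited values are spot intensity on a linear scale from Agilent Feature Extraction, with background subtraction, per the file headers; RNA (0.2 µg) was amplified and labelled with Cy3, per the labels' protocols. From these, log2 intensity was scaled here by subtracting the 75th percentile that the array's probes reached, control probes aside. Spots with outlier marks (41 probes) were left out, repeated spots averaged and the brightest probe used per gene; 35 members have several probes, which for 22 are joined by shared sequence. Features well above background on at least 3 arrays were fitted with limma 3.58.1 in R 4.3.3, with day and treatment additive over all 6 arrays (residual 2 degrees of freedom, 2.47 from the prior), and adjusted by Benjamini-Hochberg over 20218 features. With 1 array per group, the residual spread is how far the HPD difference varied between days, array noise included. The p-values therefore do not measure spread between replicate arrays or animals. They assume equal treatment effects on all days, and the number of arrays limits precision. Symbols came from the array and a RefSeq table, for names only (47 members matched). The members and lists were chosen with earlier results of these data known. Named members are core and isoform genes, the 3 highest and 3 lowest for HPD, day 7 minus day 3 and day 7 minus day 5, and the 2 highest and 2 lowest on each day; for the lists, the highest and lowest for HPD and for day 7 minus day 3, of which a few are given. COX5A belongs to the core and isoform genes but its label was not matched, so it was not followed singly through the alternatives. Scaling, background, filters, probe choice, left-out days and blocks were varied. Promoter motifs were not analysed here, and single values of 1 member are not reported here. Plots used Python 3.11.15 and matplotlib 3.10.9.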

Additional observations from a re-analysis of the deposited data

How the results depend on the processing

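The direction of the HPD median over members held under every alternative run, but its size depended on the scaling between arrays: it was -0.10 with normexp background, -0.032 with quantile normalization, -0.26 with the median of each array and -0.060 with centring on features of level 4 or more (chosen after seeing the data), and leaving out 1 day at a time gave -0.13 to -0.11. Among single days, quantile normalization gave 0.030, -0.088 and -0.027 for days 3, 5 and 7, the median of each array -0.27, -0.25 and -0.22, the centring -0.014, -0.082 and -0.042, and normexp -0.080 on day 5. Subunits alone gave -0.12 on day 3 and -0.14 on day 7, the mean of a gene's probes -0.15 on day 7, and leaving out gene numbers that share a locus or probe -0.12 on day 3. Members below control on all 3 days numbered 14 with quantile normalization and 18 with the centring. Members higher on day 5 than day 3 in both treatments numbered 25 and 17, and members lower on day 7 than day 5 numbered 20 and 21.

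For day 5 minus day 3 the member median was 0.17 with normexp, 0.070 with quantile normalization, 0.33 with the median of each array, -0.011 with the centring, 0.22 with the mean of probes, 0.25 with subunits alone, 0.24 without shared loci and 0.25 in control arrays alone. For day 7 minus day 5 it was -0.034 with quantile normalization, -0.23 with the median of each array, -0.013 with the centring and -0.18 in HPD arrays alone. For day 7 minus day 3 it was 0.045 with normexp, 0.0099 with quantile normalization, 0.077 with the median of each array, -0.043 with the centring, 0.075 with the mean of probes, 0.11 with subunits alone, 0.066 without shared loci, and 0.11 and 0.099 in control and HPD arrays alone. Normexp called 1023, 298 and 2 of all features for day 7 minus day 3, day 5 minus day 3 and day 7 minus day 5; 1 of these was a member, NDUFA4 for day 5 minus day 3 (adjusted p = 0.0499 by limma). The additive fit as reported called 1, 1 and 0 features; quantile normalization, no filter and the centring called 0 for the first pair, and a filter on all 6 arrays called 5 for day 7 minus day 3. The cause of these shifts was not tested. The median HPD difference of all features moved from 0.092 to -0.041 with the median of each array, and that of day 5 minus day 3 from -0.057 to -0.30 with the centring. Among members named above, the HPD sign turned with quantile normalization for NDUFA6, NDUFS1, SDHB, COX6A1, ATP5F1A, ATP5F1B and ATP5F1C, with the median of each array for NDUFS3, with the centring for SDHB, UQCRC1 and ATP5F1B, with the mean of probes for TACO1, and with leaving out 1 day for UQCRC1, TACO1, ATP5F1A, ATP5F1B and ATP5F1C. No feature was called for HPD in any alternative. Day pairs graft with control in the fit as reported; without the day term, with day as a random block or with slide in its place, the HPD median of the members was again -0.13 and 0 features were called. Promoter motifs were not run.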
